A study of Mus musculus with 135 samples.

Results

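Transcripts of 8 enzymes of monoamine breakdown and of the kynurenine pathway were followed through the cerebral cortex and hippocampus of Townes sickle mice. The 8 genes, Maoa, Maob, Aldh2, Ido1, Kmo, Kynu, Aadat and Haao, were picked by symbol, and each symbol was found once among the 55416 genes counted in either tissue. All mice were male and carried human globin genes in place of their own, in the sickle form (SS) or in the normal form (AA, the humanized controls). Mice named only AA or SS had neither stress nor drug. Repeated social defeat (RSD) placed a male aggressor into a cage of 3 mice for 2 h a day over 6 days. Minocycline, a tetracycline antibiotic, was given in drinking water at 90 mg per kg, starting 1 day before RSD. The stressed mice of the first cohort were 6 months old, with age-matched controls. The age of the second cohort was not given in the sources used here. Brains were taken 1 to 2 days after behavioural testing.

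Bulk poly(A) RNA sequencing was available for 134 libraries with a group, 68 of cortex and 66 of hippocampus, of which 128 entered the comparisons. Of the cortex libraries, the untreated groups held 12 (AA) and 8 (SS) mice, the groups with RSD alone 2 (AA) and 6 (SS), those with minocycline alone 1 (AA) and 4 (SS), and those with both 18 (AA) and 14 (SS). The hippocampus had 1 mouse fewer in each untreated group, 11 AA and 7 SS, and the same numbers otherwise. The depth, counted as reads on genes, was 16295042 to 107713193 in cortex (median 33848502) and 12869149 to 68731008 in hippocampus (median 36523234). The SS + minocycline library of mouse 9887 and the AA + RSD + minocycline library of mouse 9877 held identical counts in both tissues, and the cortex and hippocampus libraries of AA + RSD mouse 9674 went against their tissue by marker genes. These libraries were left out. In those used, the mean log2 level of 4 hippocampal marker genes minus that of 4 cortical ones was -4.51 to -2.38 in cortex and -0.639 to 3.23 in hippocampus. The libraries of mice 5844, 5853, 7078 and 9631 went against their genotype labels by reticulocyte and globin transcripts. They were kept, and every comparison was also made without them.

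The mouse numbers in the titles fall into 3 runs, called series A, B and C here, and the labels do not say what a run stands for. All 6 SS + RSD mice and both AA + RSD mice were of series A. The 14 SS + RSD + minocycline mice were of series B (12) and C (2), and the 18 AA + RSD + minocycline mice of series B (15) and C (3). Control mice came from series A and B. Minocycline in stressed mice and number series therefore cannot be told apart by a direct comparison, and values within a series are given beside the pooled ones. In control mice, 40.3% of 19710 genes tested in cortex and 40.8% of 21210 in hippocampus differed between series B and A at an adjusted p under 0.05 (edgeR's quasi-likelihood test, Benjamini-Hochberg over all genes tested).

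Monoamine oxidases A and B sit on the outer mitochondrial membrane and deaminate serotonin, noradrenaline and dopamine to aldehydes, which mitochondrial aldehyde dehydrogenase, the product of Aldh2, oxidises to acids. In the brain, MAO-B is known mainly from astrocytes and from serotonin neurons, and MAO-A mainly from catecholamine neurons. The kynurenine pathway breaks down tryptophan: indoleamine 2,3-dioxygenase, the product of Ido1, opens it, and kynurenine is then either turned into kynurenic acid by aminotransferases such as the product of Aadat, or passed by Kmo, Kynu and Haao towards quinolinic acid, mainly in microglia and macrophages. Inflammatory signals such as interferon gamma are known to induce Ido1, which is why the pathway is often studied in stress and in minocycline treatment.

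Maoa (ENSMUSG00000025037.7) and Maob (ENSMUSG00000040147.15) are neighbours on mouse chromosome X of GRCm39, at 16485893 to 16554057 on the plus strand and 16574807 to 16683686 on the minus strand. Aldh2 (ENSMUSG00000029455.15) lies on chromosome 5 at 121704090 to 121732089, minus strand. Ido1 (ENSMUSG00000031551.13, minus strand, 25074150 to 25087025) and Aadat (ENSMUSG00000057228.7, plus strand, 60958932 to 60998994) are both on chromosome 8. Kmo (ENSMUSG00000039783.16) is on chromosome 1 at 175447947 to 175489683, plus strand, Kynu (ENSMUSG00000026866.17) on chromosome 2 at 43445309 to 43572734, plus strand, and Haao (ENSMUSG00000000673.10) on chromosome 17 at 84138583 to 84155392, minus strand. Exons of another gene on the opposite strand overlap 10.8% of the exonic bases of Haao (Gm56902), 5.46% of those of Aldh2 (Gm42879) and 3.84% of those of Kmo (Fh1). The strand setting of the counting was not given in the sources used here, so reads of these pairs may be shared.

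The 8 genes fell into an abundant group and a group at trace level. Per kilobase of exon, the mean level in AA cortex was 13.5 ± 0.901 counts per 1000000 reads on genes (CPM) for Aldh2, 8.25 ± 0.973 for Maoa and 7.60 ± 1.41 for Maob (SD, n = 12). Maoa and Maob differed by less than their spread. Ido1 followed at 0.306 ± 0.201 CPM per kb. Aadat stood at 0.0524 ± 0.0285, Haao at 0.0351 ± 0.0328, Kynu at 0.0094 ± 0.00779 and Kmo at 0.00491 ± 0.00697 CPM per kb, so that Aadat and Haao, and Kynu and Kmo, were each within 1 SD of the other. In AA hippocampus (n = 11) the abundant enzymes kept this order, with Aldh2 at 14.8 ± 1.27, Maoa at 7.59 ± 0.800 and Maob at 7.31 ± 1.21 CPM per kb, whereas Ido1 stood at 0.0948 ± 0.0391, close to Aadat at 0.0649 ± 0.0345. Haao was at 0.0314 ± 0.0258, Kynu at 0.0114 ± 0.0128 and Kmo at 0.0112 ± 0.0101 CPM per kb.

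**Figure D1:**
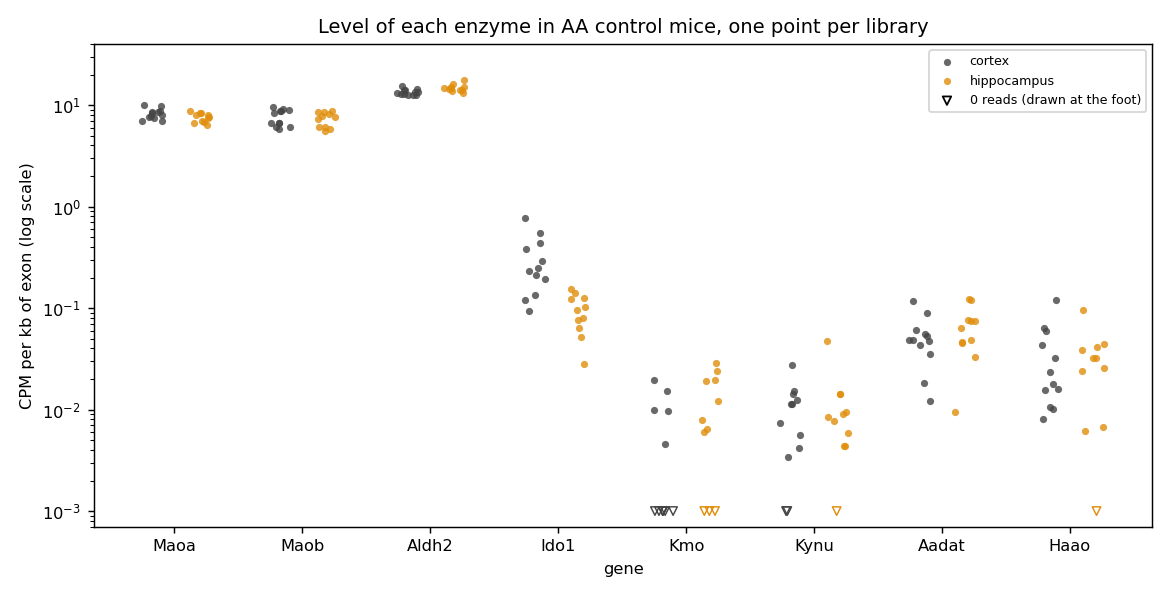
Level per kilobase of exon (CPM per kb, log axis) of the 8 genes in AA control mice, 12 in cortex and 11 in hippocampus. Points are mice. Aldh2, Maoa and Maob lie between 7.31 and 14.8 CPM per kb on average and the kynurenine pathway genes at or below 0.306.

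Maoa was read in every library, from 28.2 to 61.5 CPM in cortex (median 36.8, 65 libraries) and from 26.2 to 48.2 in hippocampus (median 34.3, 63 libraries). Maob ran from 17.8 to 35.96 CPM in cortex (median 25.4) and from 17.7 to 44.4 in hippocampus (median 23.3), and Aldh2 from 41.1 to 116 (median 82.2) and from 71.2 to 115 (median 84.9). The lowest Aldh2 value and the highest Maoa value in cortex came from the same library, that of AA + RSD + minocycline mouse 9851. In its hippocampus library Aldh2 was at 78.0 and Maoa at 30.9 CPM.

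**Figure D2:**
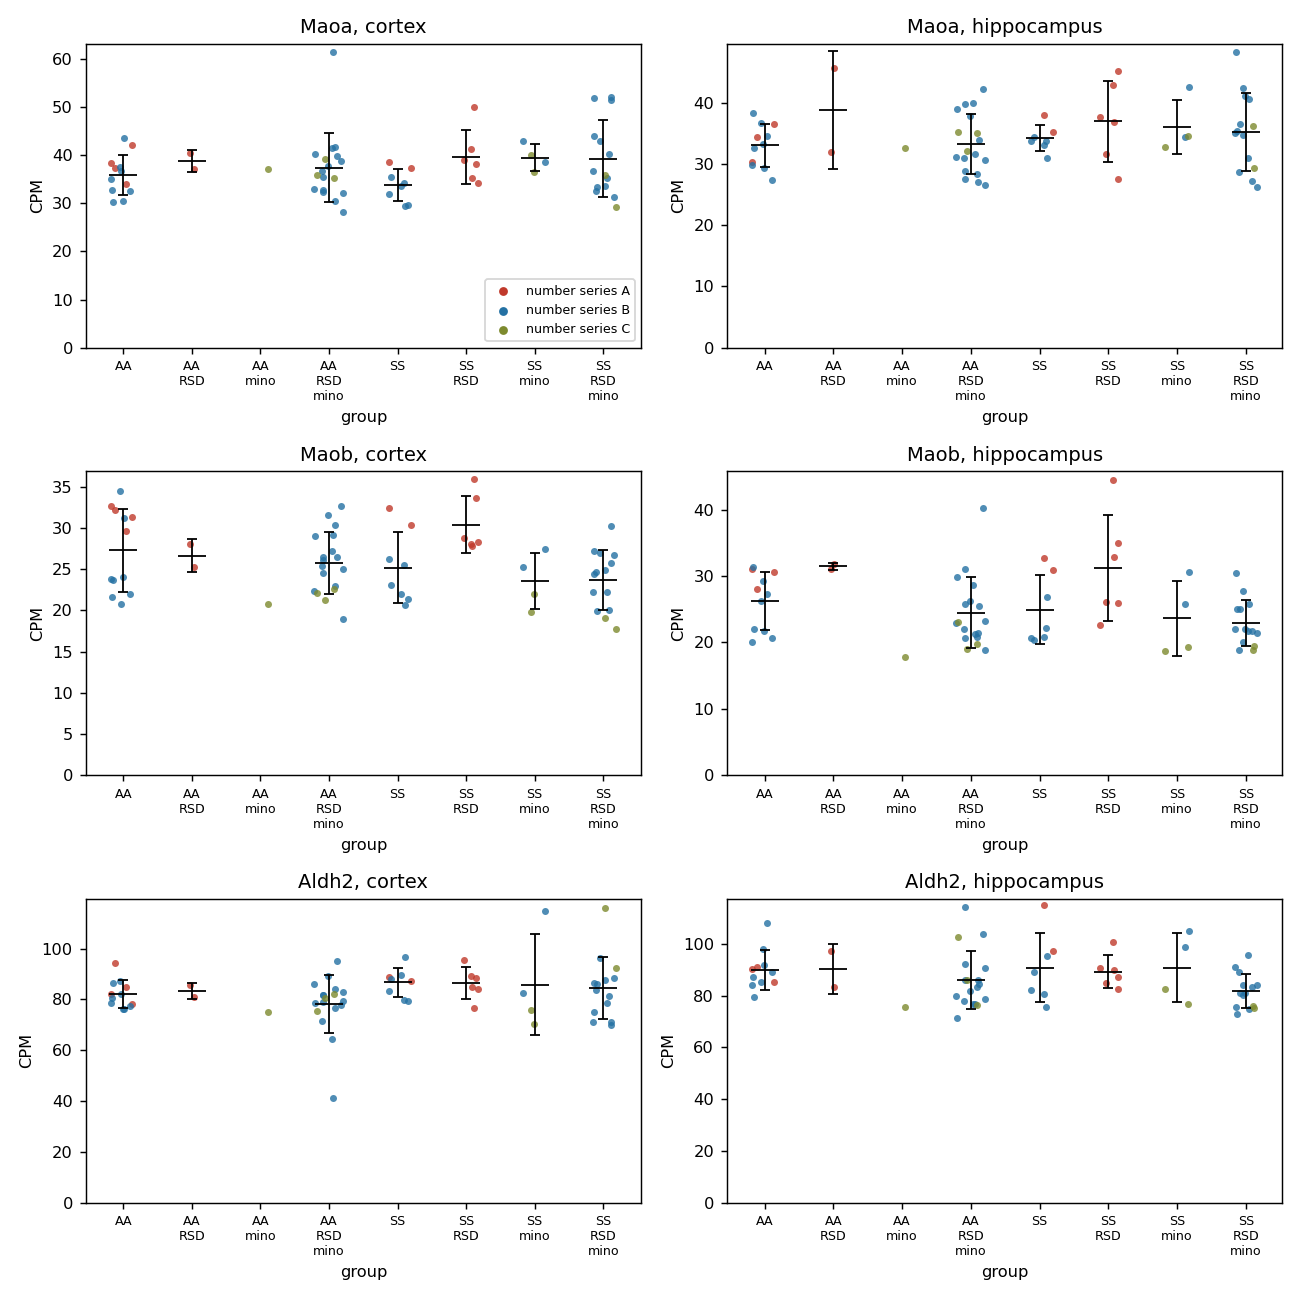
CPM of Maoa, Maob and Aldh2 in every cortex and hippocampus library, by group. Points are mice coloured by number series, bars are mean ± SD, and mino stands for minocycline. In the Maob panels the SS + RSD mice (27.8 to 35.96 CPM in cortex), all of series A, sit towards the top, as do the series A control mice.

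Maob was the only member called between SS groups when all SS groups and series were fitted together. In cortex it was read at 20.6 to 32.5 CPM in the 8 SS mice (median 24.2, mean 25.2 ± 4.34). The 6 SS + RSD mice stood at 28.02, 27.8, 33.6, 28.8, 35.96 and 28.3 CPM, a mean of 30.4 ± 3.48. The 14 SS + RSD + minocycline mice ran from 17.8 to 30.2 CPM (median 24.5, mean 23.7 ± 3.62). The SS + RSD mice overlapped both other groups in their ranges. The 4 SS + minocycline mice stood at 19.8 and 21.9 CPM (series C) and at 25.2 and 27.5 CPM (series B). In hippocampus the SS mice ran from 20.4 to 32.8 CPM (median 22.2, n = 7) and the SS + RSD mice stood at 22.6, 25.9, 44.4, 32.9, 34.96 and 26.2 CPM. The SS + RSD + minocycline mice ran from 18.8 to 30.4 (median 21.9), and the SS + minocycline mice stood at 18.7 and 19.3 (series C) and at 25.8 and 30.6 CPM (series B).

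To ask what stress did in sickle mice, SS + RSD mice were compared to SS mice. The log2 difference of Maob was 0.38 ± 0.13 (SE) in cortex (adjusted p = 0.0774, edgeR) and 0.41 ± 0.18 in hippocampus (adjusted p = 0.188). Maoa differed by 0.35 ± 0.13 (adjusted p = 0.105) and 0.21 ± 0.14 (adjusted p = 0.448), with 34.3 to 50.03 CPM in SS + RSD (median 38.6) and 29.5 to 38.6 CPM in SS cortex (median 33.97), and 27.6 to 45.2 (median 37.3) and 31.04 to 37.9 (median 33.8) in hippocampus. Aldh2 differed by 0.12 and 0.07. No member passed the test, out of 5 tested in cortex, where 2.57% of all genes tested were called, and out of 6 in hippocampus, where 3.11% were called. DESeq2 called 0 in either tissue. Fitted to these 2 groups alone, edgeR called Maoa in cortex at 0.31 (adjusted p = 0.0346). The share of all genes called in that fit is not given here. In the fit of all SS groups, 2 of 5 members in cortex, Maoa and Maob, were at an unadjusted p under 0.05. In hippocampus it was 1 of 6, Maob. The shares over all genes tested were 27.7% in cortex and 19.6% in hippocampus. The median log2 difference of the members was 0.38 in cortex, against 0.08 over all genes tested. Of the SS mice, those of series A had the highest Maob, at 30.4 and 32.5 CPM in cortex and 32.8 and 30.9 CPM in hippocampus, against 20.6 to 26.2 and 20.4 to 26.9 CPM in those of series B. Within series A, with 6 SS + RSD and 2 SS mice, the difference of Maob was -0.03 ± 0.13 in cortex and 0.0028 ± 0.22 in hippocampus. For Maoa in cortex, control mice of series A, AA and SS together, stood at 34.1 to 42.2 CPM (median 37.9, n = 6). Over 15 alternatives the log2 difference of Maoa in cortex, SS + RSD against SS, ran from 0.08 to 0.36.

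To ask what minocycline did in stressed sickle mice, SS + RSD + minocycline mice were compared to SS + RSD mice. Maob was lower by 0.48 ± 0.12 log2 units in cortex (log2 difference -0.48, adjusted p = 0.0139, edgeR). It was the only one of the 5 members tested that was called, against 8.85% of all genes tested. In hippocampus the log2 difference of Maob was -0.50 ± 0.15 with an adjusted p of 0.0506. There 0 of 6 members were called by edgeR and 1, Maob, by DESeq2, with 5.96% of all genes tested called and 2 members, Aldh2 and Maob, at an unadjusted p under 0.05, beside 26.8% of all genes. Maoa (-0.13 ± 0.12 and -0.12 ± 0.13) and Aldh2 (-0.15 ± 0.09 and -0.19 ± 0.09) did not pass the test. The median over the members was -0.15 in cortex, against -0.05 over all genes tested, and -0.28 in hippocampus, against -0.03. The call of Maob in cortex was lost without SS + RSD mouse 9615, at -0.41 with an adjusted p of 0.0514 (edgeR). With number series as a term in the model, the difference of Maob was 0.15 ± 0.17 in cortex (adjusted p = 1.0) and 0.22 ± 0.25 in hippocampus (adjusted p = 0.744), so that the direction turned. In this model of SS groups, series A stood beside another series only in the SS group, with 2 mice of series A. The term takes the series difference to be the same in all groups.

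In control mice the number series itself went with all 3 abundant enzymes. Maob stood at 31.4 ± 1.21 CPM in the 6 cortex libraries of series A and at 24.3 ± 4.05 in the 14 of series B, and at 30.7 ± 1.70 (n = 5) and 23.8 ± 3.86 (n = 13) in hippocampus. The log2 difference of Maob, series B against A, was -0.44 ± 0.10 in cortex (adjusted p = 0.00162, edgeR) and -0.49 ± 0.10 in hippocampus (adjusted p = 0.0013). Maoa was at 38.0 ± 2.59 against 33.8 ± 3.82 CPM in cortex and 34.9 ± 2.90 against 32.9 ± 2.97 in hippocampus, a log2 difference of -0.24 ± 0.07 (adjusted p = 0.0144) and -0.20 ± 0.08 (adjusted p = 0.0433). Aldh2 was at 86.0 ± 5.65 against 83.0 ± 5.99 and 95.8 ± 11.7 against 88.1 ± 8.72 CPM, a log2 difference of -0.14 ± 0.05 (adjusted p = 0.0294) and -0.24 ± 0.08 (adjusted p = 0.0178). Thus 3 of 4 members tested were called in cortex and 3 of 6 in hippocampus, beside the shares of 40.3% and 40.8% over all genes given above. DESeq2 called the same 3 in cortex and 2 in hippocampus, where Maoa missed the threshold. Among AA mice alone edgeR called none, with Maob at -0.42 (adjusted p = 0.0688) and -0.36 (adjusted p = 0.0893). The 3 differences of Maob between series, between SS + RSD + minocycline and SS + RSD mice, and between SS + RSD and SS mice share libraries, and lay at 0.38 to 0.50 log2 units in size.

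**Figure D3:**
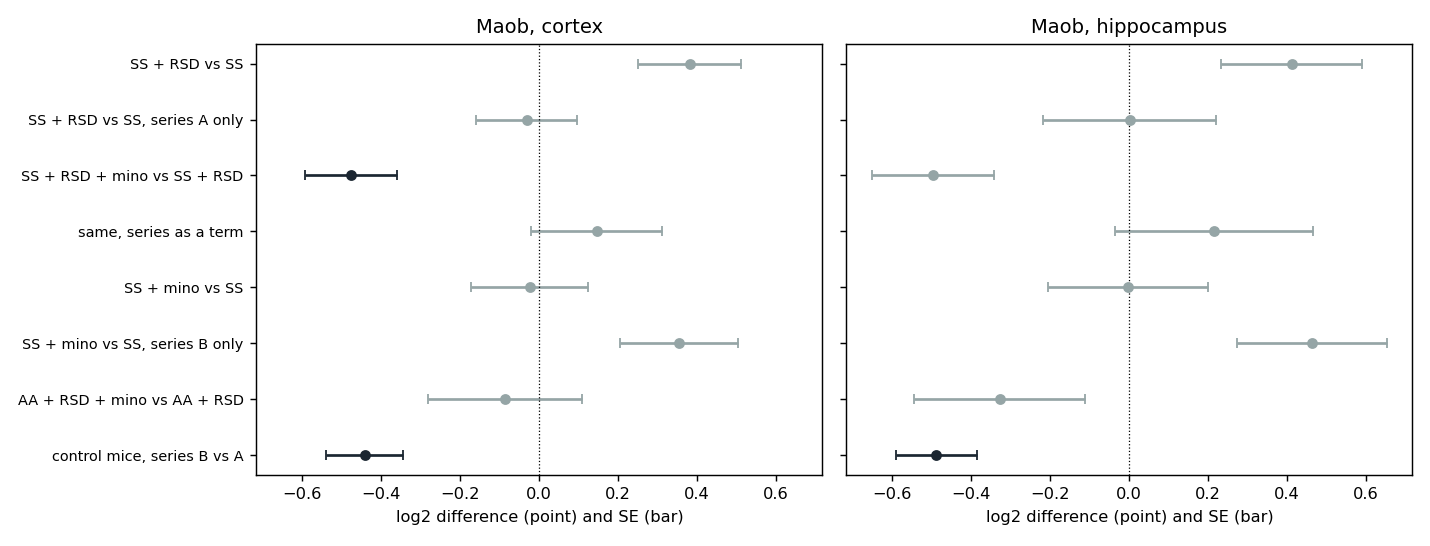
Log2 differences of Maob in cortex and hippocampus for the stress, minocycline and number series comparisons, pooled and within or adjusted for the series. Points are edgeR estimates, bars are SE, and dark points have an adjusted p under 0.05. The pooled differences of SS + RSD against SS (0.38 and 0.41) stand at -0.03 and 0.0028 within series A, and those of SS + RSD + minocycline against SS + RSD (-0.48 and -0.50) stand at 0.15 and 0.22 with series as a term.

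Markers of several cell types were lower in the same comparison. Over the libraries, after the group means were subtracted, Maob correlated with the mean log2 level of 8 astrocyte markers at r = 0.70 in cortex and 0.75 in hippocampus, and with that of 8 microglia markers at 0.75 and 0.76 (65 and 63 libraries, which share depth and dissection with both measures). For Maoa these values were 0.60 and 0.57 with astrocyte markers, and 0.62 and 0.58 with microglia markers. Number series was not subtracted, and its part in these correlations was not tested. In cortex the astrocyte sum was 4745 to 7165 CPM in SS + RSD (median 5159) and 3202 to 5503 in SS + RSD + minocycline mice (median 4705), and the microglia sum was 333 to 473 (median 373) and 259 to 431 (median 325). In hippocampus the astrocyte sums were 5277 to 7328 (median 5715) and 4401 to 5443 (median 4874) and the microglia sums 369 to 537 (median 418) and 282 to 430 (median 342). Of the 8 astrocyte markers, 3 fell in cortex, Aldh1l1 (-0.46), Aldoc (-0.40) and Gja1 (-0.40), and 2 in hippocampus, Aldh1l1 (-0.40) and Slc1a2 (-0.31), and none rose. Of the 8 microglia markers, Tmem119 (-0.50) and Csf1r (-0.40) fell in cortex, Csf1r (-0.44) and Cx3cr1 (-0.38) fell in hippocampus, and none rose. Of the 8 endothelial markers, 3 fell in cortex, Pecam1 (-0.63), Tek (-0.59) and Cdh5 (-0.50), and 1 in hippocampus, Pecam1 (-0.51), and their median of -0.53 in cortex was further from 0 than those of the astrocyte (-0.36) and microglia lists (-0.30). In cortex 2 of 8 meningeal fibroblast markers, Col3a1 (-1.06) and Col1a2 (-0.70), and 2 of 7 reticulocyte markers, Epb42 (-1.14) and Slc4a1 (-1.11), fell too, and in hippocampus Kl of choroid plexus (-1.34) and F13a1 of border and blood myeloid cells (-1.07). No marker of oligodendrocytes or neurons was called in either tissue. Of all 19906 genes tested in cortex, 492 were called lower and 1270 higher. Of all 20701 tested in hippocampus, 224 were called lower and 1010 higher. Maob correlated with the endothelial list at r = 0.37 in cortex and 0.35 in hippocampus. Between series B and A in control mice, 5 of 8 astrocyte and 6 of 8 microglia markers were lower in each tissue, as were 4 of 8 endothelial markers in cortex and 5 in hippocampus, 2 of 8 oligodendrocyte markers in cortex and 7 in hippocampus, and 3 of 8 neuronal markers in cortex and 4 in hippocampus, beside the 40.3% and 40.8% of all genes called. No astrocyte or microglia marker was at 0. The share of reads outside annotated genes also differed, with a median of 4.18% in SS + RSD and 9.76% in SS + RSD + minocycline cortex, and 4.38% and 9.32% in hippocampus. The part of these measures in the result was not tested beyond the term for reads outside genes, with which the difference of Maob in cortex was -0.27 (adjusted p = 0.33, edgeR). In bulk tissue, fewer cells of a type and less RNA per cell cannot be told apart.

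Minocycline without stress was compared in SS mice only. The log2 difference of Maob, SS + minocycline against SS, was -0.02 ± 0.15 in cortex and -0.0028 ± 0.20 in hippocampus. Within series B, with 2 treated mice, it was 0.36 ± 0.15 (adjusted p = 0.0786, edgeR) and 0.46 ± 0.19 (adjusted p = 0.11). Maoa stood at 40.05, 36.5, 43.1 and 38.6 CPM in the 4 treated cortex libraries, a difference of 0.30 ± 0.15 (adjusted p = 0.711). Aldh2 stood at 75.7, 70.2, 82.3 and 115 CPM there, a wider range than the 79.3 to 96.9 CPM of the SS mice. No member was called in either tissue by edgeR or DESeq2 (0 of 5 and 0 of 6, with 0.0% of all genes called in cortex and 0.0% in hippocampus), and at an unadjusted p under 0.05 there was 1 in cortex, Aadat, beside 7.06% of all genes, and 0 in hippocampus. SS + RSD + minocycline against SS + minocycline, the comparison of stress under the drug, also gave 0 calls in either tissue by both tools (0.0% of all genes in cortex and 0.0% in hippocampus, 0 members at an unadjusted p under 0.05), with Maob at -0.07 ± 0.14 and -0.08 ± 0.18. The series were mixed differently in these groups, 12 of B and 2 of C against 2 of B and 2 of C. A value of Maob adjusted for series is not given here.

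In the AA mice, only 2 stressed mice without minocycline were left. Their Maob was 28.05 and 25.3 CPM in cortex and 31.9 and 31.1 in hippocampus, against 20.8 to 34.5 (median 26.8) and 20.1 to 31.4 CPM (median 27.3) in AA mice and 18.9 to 32.6 (median 25.7) and 18.9 to 40.3 CPM (median 22.98) in AA + RSD + minocycline mice. The log2 difference of Maob, AA + RSD against AA, was -0.03 ± 0.20 in cortex and 0.24 ± 0.23 in hippocampus, and AA + RSD + minocycline against AA + RSD it was -0.08 ± 0.20 and -0.33 ± 0.22 (adjusted p from 0.703 to 0.996, edgeR). These differences are pooled over series, and both AA + RSD mice were of series A. In control mice of series A, AA and SS together, Maob was at 29.7 to 32.6 CPM in cortex (n = 6). In hippocampus it was at 28.03 to 32.8 CPM (n = 5). The AA + RSD mice lay below that range in cortex and within it in hippocampus. Maoa was at 40.5 and 37.2 CPM in AA + RSD cortex and 45.7 and 32.01 in hippocampus, and Aldh2 at 85.6 and 81.1, and 83.5 and 97.1 CPM. AA + RSD against AA gave 0 calls among the members by edgeR and DESeq2 (6 tested in cortex and 7 in hippocampus, 0 at an unadjusted p under 0.05), beside 0.0% of all genes in cortex and 0.0419% in hippocampus. AA + RSD + minocycline against AA + RSD gave 0 calls by either tool as well, beside 0.0% and 0.0419% of all genes, and at an unadjusted p under 0.05 it gave 1 member in cortex, Ido1, and 1 in hippocampus, Kynu, beside 13.1% and 6.95% of all genes. Both comparisons share the 2 AA + RSD mice.

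Sickle genotype was compared at each level of stress and treatment. SS against AA, the log2 differences of Maob, Maoa and Aldh2 were -0.20 ± 0.12, -0.17 ± 0.12 and -0.0015 ± 0.093 in cortex, and -0.09 ± 0.15, 0.03 ± 0.12 and -0.01 ± 0.08 in hippocampus. SS + RSD against AA + RSD, Maob differed by 0.19 ± 0.22 and 0.05 ± 0.25, with 6 and 2 mice. SS + RSD + minocycline against AA + RSD + minocycline, Maob differed by -0.17 ± 0.10 (adjusted p = 0.646, edgeR) and -0.11 ± 0.11 (adjusted p = 0.974), with 14 and 18 mice. The difference of the stress effect between genotypes was 0.38 ± 0.25 for Maob in cortex and 0.14 ± 0.29 in hippocampus (adjusted p = 1.0 in both). In none of these comparisons was any of the 6 members tested in cortex or 7 in hippocampus called by edgeR or DESeq2, and their groups overlapped in every case. The shares of all genes called were 0.206% and 0.158% for SS against AA, 0.0% and 0.0171% for SS + RSD against AA + RSD, 0.599% and 2.73% for the minocycline-treated mice, and 0.0% and 0.0128% for the interaction, cortex first. At an unadjusted p under 0.05, 1 member was found in cortex, Ido1 in the minocycline-treated mice, beside 8.9% of all genes, and 0 in hippocampus.

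Ido1 was the only member called between tissues without the block of mice. In the control mice it stood at 0.138 to 1.42 CPM in cortex (median 0.368, 20 libraries) and at 0.0509 to 0.279 CPM in hippocampus (median 0.173, 18 libraries), so that the ranges overlapped. Ido1 was lower in the hippocampus than in the cortex of the same mouse in 18 of 18 mice. The log2 difference of hippocampus against cortex was -1.57 ± 0.28 (adjusted p = 1.077e-05, edgeR), in a comparison in which 46.1% of all genes tested were called. It was the one call among 4 members tested, by edgeR and DESeq2. Maob (-0.07 ± 0.09), Maoa (-0.10 ± 0.06) and Aldh2 (0.08 ± 0.05) did not pass, and with the mouse as a replicate block 2 members passed, the second being Maoa at -0.09 (adjusted p = 0.0461). These levels rest on 4 to 54 reads per control library in cortex and 1 to 15 in hippocampus.

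Within cortex Ido1 varied from 0.0482 to 3.41 CPM, both ends being SS + RSD mice. The 6 SS + RSD mice stood at 0.957, 0.345, 0.289, 0.306, 3.41 and 0.0482 CPM, the SS mice at 0.138 to 1.31 (median 0.301, n = 8), the AA mice at 0.171 to 1.42 (median 0.440, n = 12), the AA + RSD mice at 0.736 and 1.18, the SS + minocycline mice at 0.220, 0.494, 0.670 and 0.463, the SS + RSD + minocycline mice at 0.143 to 1.70 (median 0.447, n = 14) and the AA + RSD + minocycline mice at 0.0845 to 0.816 CPM (median 0.337, n = 18). The groups overlapped in every comparison made. SS + RSD + minocycline against AA + RSD + minocycline mice, Ido1 differed by 1.04 ± 0.37 log2 units (adjusted p = 0.278, edgeR) in cortex and by 0.04 in hippocampus. SS + RSD against SS mice it differed by 1.11 ± 0.65 (adjusted p = 0.256) in cortex, and by -0.03 without mouse 9621. SS + RSD + minocycline against SS + RSD mice it differed by -0.26 ± 0.57 (adjusted p = 0.795), and by 0.87 without that mouse. AA + RSD mice differed from AA by 0.76 ± 0.57 and AA + RSD + minocycline from AA + RSD by -1.35 ± 0.54 (adjusted p = 0.326) in cortex, and SS from AA by -0.40 ± 0.49. The other differences of Ido1 between groups ran from -0.09 to 0.76 in cortex, and all those in hippocampus from -0.57 to 0.38.

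The genes that followed Ido1 in cortex included genes known from striatal projection neurons. Over the 65 cortex libraries, after group means were subtracted, the genes most like Ido1 included Syndig1l (r = 0.84), Ppp1r1b (0.83), which encodes the dopamine-regulated phosphatase inhibitor DARPP-32, the dopamine receptor gene Drd2 (0.82), Lrrc10b (0.80) and Rasd2 (0.78). A list of 9 striatal genes, Drd1, Drd2, Adora2a, Ppp1r1b, Rgs9, Pde10a, Penk, Tac1 and Adcy5, was therefore summed per library. It was chosen after those genes had been seen, so its correlation is not independent of them. The mean log2 level of the list correlated with Ido1 at r = 0.83 over the cortex libraries and 0.12 over the 63 hippocampus libraries, as a description of libraries that share a dissection and a normalisation. The summed level was 335 to 836 CPM in control cortex and 304 to 368 CPM in control hippocampus. Cortex of mouse 9621, with the highest Ido1, also had the highest striatal sum, 2257 CPM, against 329.5 CPM in the lowest SS + RSD mouse and a group median of 382. SS mouse 5353, the highest SS mouse for Ido1, had the highest SS sum, 648 CPM. The median sums were 431 CPM in AA, 428 in SS, 352 in AA + RSD + minocycline and 558 in SS + RSD + minocycline cortex, where the highest library reached 1894 CPM. AA + RSD cortex stood at 366 and 818 CPM. The part of striatal tissue in the Ido1 values was not tested.

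**Figure D4:**
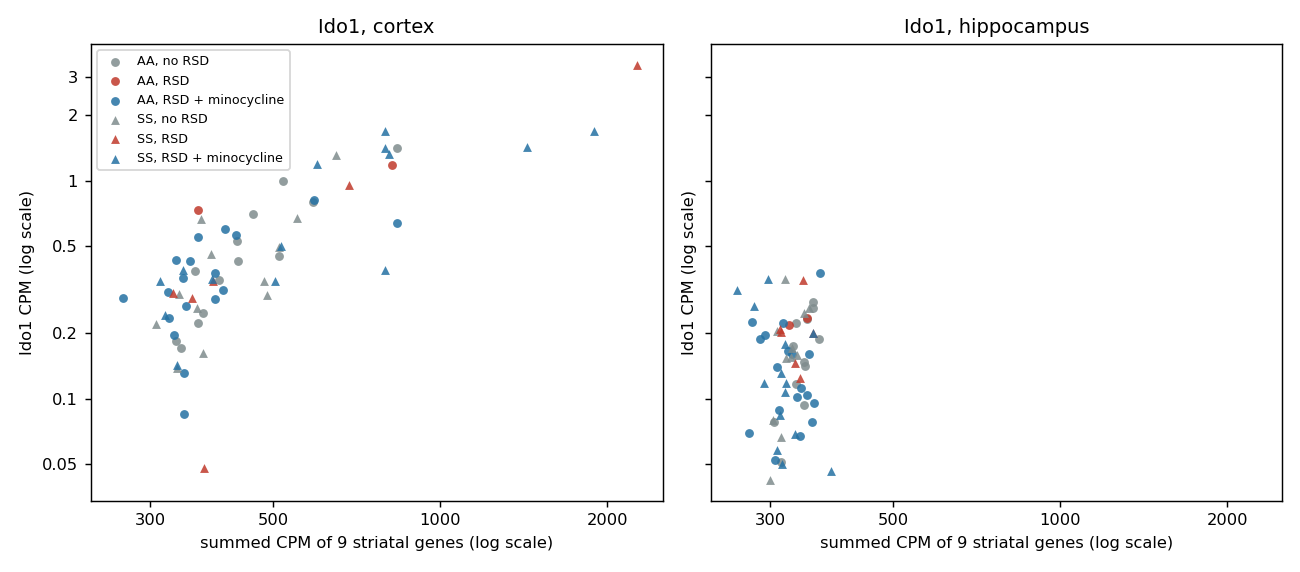
Ido1 (CPM) against the summed CPM of 9 striatal genes, one point per library, in cortex (65) and hippocampus (63), log axes. Grey marks mice without RSD, red RSD and blue RSD with minocycline, circles are AA and triangles SS. The cortex points rise together up to mouse 9621 (2257 and 3.41 CPM), and the hippocampus points stay between 261 and 387 CPM of striatal genes.

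In hippocampus Ido1 was at 0.0422 to 0.377 CPM (median 0.155). The SS + RSD mice stood at 0.208, 0.124, 0.349, 0.146, 0.201 and 0.199 CPM, the AA + RSD mice at 0.218 and 0.233, and the SS + minocycline mice at 0.155, 0.158, 0.352 and 0.0422. The AA (mean 0.173 ± 0.0714), SS (0.169 ± 0.0753), SS + RSD + minocycline (0.150 ± 0.1001) and AA + RSD + minocycline mice (0.145 ± 0.0793) overlapped them. Ido1 differed by 0.38 between SS + RSD and SS mice and by -0.48 between SS + RSD + minocycline and SS + RSD mice on the log2 scale, neither past the test. Between series B and A in control mice, Ido1 differed by -0.98 ± 0.40 in cortex (adjusted p = 0.0566, edgeR) and by -0.64 ± 0.35 in hippocampus (adjusted p = 0.138).

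Aadat, whose enzyme makes kynurenic acid, was read at 0.0247 to 0.598 CPM in cortex (median 0.144, 1 to 28 reads) and 0 to 0.389 CPM in hippocampus (median 0.169, 0 to 21 reads). Aadat in cortex stood at 0.0345 to 0.222 CPM in SS (median 0.0795) and 0.0376 to 0.369 CPM in AA mice (median 0.151), a log2 difference of -0.80 ± 0.45 (adjusted p = 0.678, edgeR). The 4 SS + minocycline cortex libraries stood at 0.124, 0.124, 0.527 and 0.193 CPM, the third being 11 reads, and differed from SS by 1.31 ± 0.64 (adjusted p = 0.702), and by 0.63 without mouse 9888, the one with 11 reads. Within series B, with 2 treated mice, Aadat passed the test at 2.04 (adjusted p = 0.0357, edgeR). Mouse 9888 was 1 of those 2 mice, and the share of all genes called in that fit is not given here. In hippocampus the 4 SS + minocycline mice stood at 0.0620, 0.111, 0 and 0.296 CPM against 0.0446 to 0.322 in SS mice, a difference of -0.76 ± 0.58 (adjusted p = 0.981). The difference between the tissues was not tested. AA + RSD mice were at 0.0640 and 0.0910 CPM in cortex and 0.218 and 0.389 in hippocampus. The differences of Aadat that rest on these 2 mice were, in cortex and hippocampus, -1.05 ± 0.71 and 0.50 ± 0.58 against AA, 1.07 ± 0.84 and -0.41 ± 0.67 for SS + RSD against AA + RSD, 1.21 ± 0.70 and -0.95 ± 0.55 for AA + RSD + minocycline against AA + RSD, and 1.87 ± 0.96 and -0.37 ± 0.77 for the interaction, none past the test. Between SS + RSD and SS mice, Aadat differed by 0.86 ± 0.58 and 0.17 ± 0.49, and the differences of Aadat not given here were between -0.71 and 0.57.

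Haao, the dioxygenase next before quinolinic acid, was read at 0.0243 to 0.734 CPM in cortex (median 0.152) and 0 to 0.512 CPM in hippocampus (median 0.163). Its group means stayed between 0.113 ± 0.0803 CPM (SS + RSD) and 0.196 ± 0.0676 (SS) in cortex among groups of more than 1 mouse, and between 0.147 ± 0.121 (AA) and 0.210 ± 0.134 (AA + RSD + minocycline) in hippocampus. Every tested difference of Haao lay between -0.59 and 0.30 log2 units, and none passed the test. Haao was at 0 reads in 5 hippocampus libraries, which allows up to 0.102 to 0.141 CPM (3 reads of each library, counting error only).

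Kynu, which cleaves kynurenine and its 3-hydroxy form, gave 0 to 12 reads per cortex library (median 0.0715 CPM) and 0 to 16 per hippocampus library (median 0.0484 CPM). Kynu was at 0 reads in 6 cortex libraries, which allows up to 0.0571 to 0.151 CPM, and in 15 hippocampus libraries, which allows up to 0.0465 to 0.151 CPM. In hippocampus, Kynu stood at 0.249 and 0.0777 CPM (8 reads and 1 read) in AA + RSD mice and at 0 to 0.0951 CPM in AA + RSD + minocycline mice (median 0.0520), a log2 difference of -1.80 ± 0.83 (adjusted p = 0.696, edgeR). Kynu differed by 1.11 ± 0.88 between AA + RSD and AA, by -1.90 ± 1.12 between SS + RSD and AA + RSD, by -0.85 ± 0.70 between SS and AA, by 0.10 ± 0.53 between the genotypes given both RSD and minocycline and by -1.05 ± 1.36 in the interaction, none past the test.

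Kmo, the monooxygenase at the branch towards quinolinic acid, was at 0 reads in 17 of 65 cortex and 20 of 63 hippocampus libraries, which allows up to 0.0428 to 0.184 and 0.0443 to 0.233 CPM, and never exceeded 11 reads. Kmo did not pass the filter on low counts in any comparison given here. The alternative without that filter included it, and its differences there are not given. Among groups of more than 1 mouse, its medians in cortex ran from 0 CPM in AA to 0.0978 in SS + RSD mice, with 0.0418 in SS and 0.0839 in SS + RSD + minocycline mice. In hippocampus, Kmo had its highest median among groups of more than 2 mice in SS mice, 0.0774 CPM, against 0.0387 in AA mice. This ranking leaves out the AA + RSD group, which had 2 mice. No difference of Kynu passed the test where it was tested, in hippocampus, and no test of Kmo is given here. Both genes had few reads per library.

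**Figure D5:**
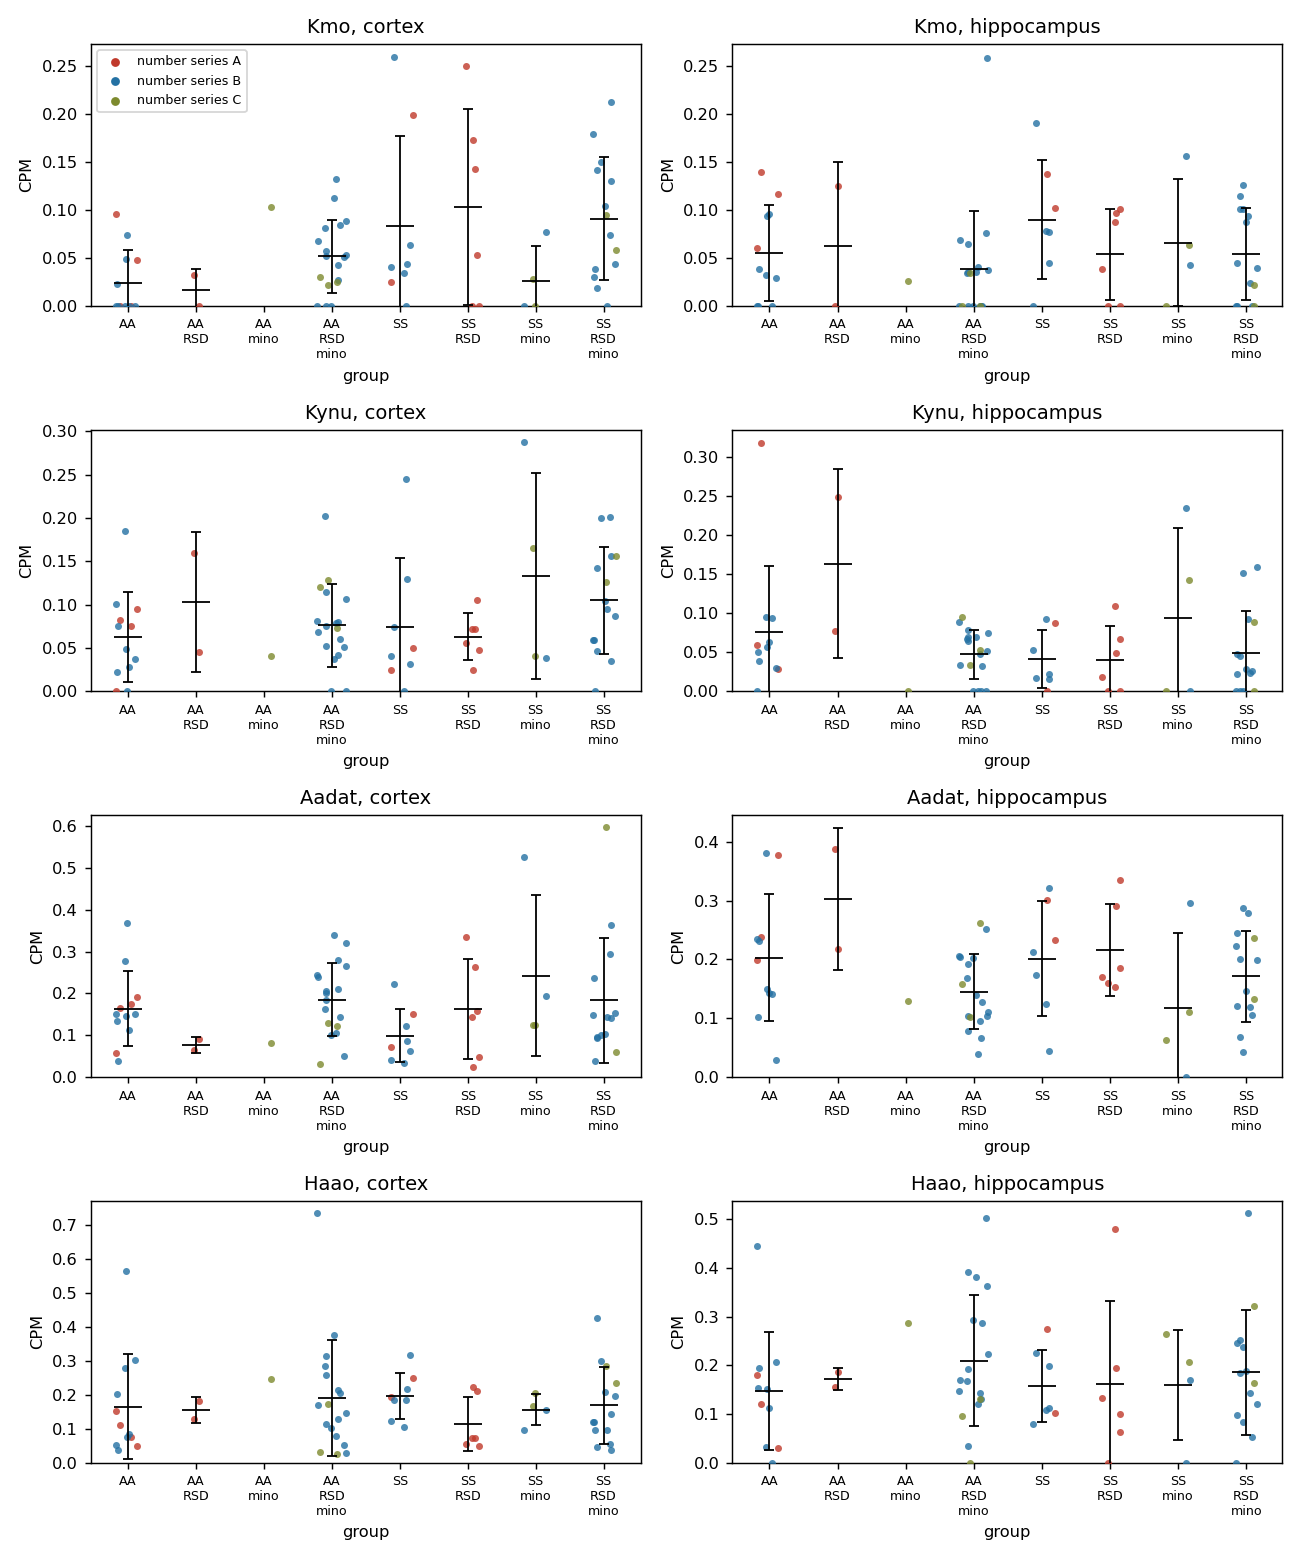
CPM of Kmo, Kynu, Aadat and Haao in every library, by group and tissue. Points are mice coloured by number series and bars are mean ± SD. Kmo and Kynu sit at 0 in 17 and 6 cortex libraries and 20 and 15 hippocampus libraries.

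The members were set beside the rest of their pathways. Of 8 other kynurenine pathway genes all were matched, and of 26 other genes of monoamine synthesis, transport and breakdown 25 were. For stress and treatment, calls were few and all in hippocampus. Afmid, the formamidase that releases kynurenine after the Ido1 step, stood at 0.883 ± 0.347 CPM in SS (n = 7), 0.337 ± 0.0975 in SS + RSD (n = 6) and 0.886 ± 0.395 in SS + RSD + minocycline mice (n = 14). It fell by 1.28 ± 0.32 log2 units in SS + RSD against SS mice (adjusted p = 0.043, edgeR, 1 of 7 tested) and was higher by 1.30 ± 0.29 in SS + RSD + minocycline against SS + RSD mice (adjusted p = 0.0239, 1 of 7). Within series A, with 2 SS mice at 0.602 and 0.611 CPM and the SS + RSD mice at 0.199 to 0.437 CPM, the difference of Afmid was -0.81 ± 0.42 (adjusted p = 0.72), and with series as a term the second was 0.71 ± 0.53 (adjusted p = 0.568). Th, tyrosine hydroxylase, the first enzyme of dopamine synthesis, was higher by 0.83 ± 0.24 in SS + RSD + minocycline (0.884 ± 0.291 CPM) than in SS + RSD hippocampus (0.479 ± 0.191 CPM, adjusted p = 0.0393, edgeR, 1 of 21 tested), and by 1.39 ± 0.43 with series as a term (adjusted p = 0.108). Acmsd, which diverts the pathway away from quinolinic acid, was higher by 2.09 ± 0.57 in SS + RSD + minocycline (0.0548 ± 0.0655 CPM) than in AA + RSD + minocycline hippocampus (0.0108 ± 0.0192 CPM, adjusted p = 0.0263, edgeR, 1 of 8 tested), with levels near a few reads per library. In hippocampus, 3.11% of all genes tested were called for SS + RSD against SS mice. The share was 5.96% for SS + RSD + minocycline against SS + RSD mice. It was 2.73% between the genotypes given both RSD and minocycline. DESeq2 called Afmid and Th in these comparisons but not Acmsd. In every other comparison of stress, genotype or treatment, edgeR and DESeq2 called 0 of 7 to 8 kynurenine and 0 of 21 to 24 monoamine genes, with 0 to 2 and 0 to 5 at an unadjusted p under 0.05. Over all genes tested, edgeR called 0.0% to 8.85% in these comparisons, and 1.85% to 27.7% were at an unadjusted p under 0.05.

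In control mice, 4 of 7 other kynurenine genes tested rose in hippocampus against cortex and none fell, beside the 46.1% of all genes called in either direction. This fit was without the block of mice, so the 2 libraries of a mouse were treated as separate. Tdo2, tryptophan 2,3-dioxygenase, which catalyses the same step as Ido1, stood at 0.372 ± 0.151 CPM in cortex and 9.16 ± 2.52 in hippocampus, a log2 difference of 4.58 ± 0.18 (adjusted p = 1.401e-23, edgeR), opposite in direction to Ido1. Qprt (0.99) and Ido2 (0.25) rose as well. Of 21 other monoamine genes tested 9 rose and 3 fell. Slc18a2, the vesicular monoamine transporter, stood at 0.135 ± 0.0608 CPM in cortex and 2.72 ± 1.13 in hippocampus (log2 difference 4.22), Slc29a4 differed by 3.01 and Slc6a3 by 1.56. Between number series B and A in cortex, 2 of 7 kynurenine genes were higher and 2 lower, led by Afmid (0.70) and Tdo2 (-0.68), and of 19 monoamine genes none was higher and 5 lower, led by Akr1a1 (-0.40). In hippocampus 3 of 7 kynurenine genes, led by Tdo2 (-0.53), and 7 of 21 monoamine genes, led by Qdpr (-0.69), were lower and none higher. These counts stand beside 40.3% of all genes called in cortex and 40.8% in hippocampus.

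The members also varied with one another and between the tissues of a mouse. After group means were subtracted, Maoa and Maob correlated at r = 0.55 in cortex and 0.66 in hippocampus, Aldh2 and Maoa at -0.45 and -0.07, and Ido1 and Maob at 0.47 and 0.26 (65 and 63 libraries). Number series was not subtracted for any correlation given here, and its part in them was not tested. Between the cortex and hippocampus of the same mouse (62 mice), Maob correlated at r = 0.70, Haao at 0.54, Maoa at 0.50, Kmo at 0.21, Ido1 at 0.20, Kynu at 0.19, Aldh2 at 0.15 and Aadat at -0.09. Of the genes whose log2 CPM averaged 1 or more, those most like Maoa in both tissues included Atad1 (0.82 and 0.83) and Ssb (0.82 and 0.83). Those most like Maob were Ptgr2 (0.76 and 0.87), Smpdl3a (0.75 and 0.85) and Gosr2 (0.80 and 0.74), and those most like Aldh2 were Pltp (0.76 and 0.71), Gas6 (0.70 and 0.76) and Bcam (0.69 and 0.82). For Ido1 the most alike were Cnn3 (0.42 and 0.38), Nono (0.38 and 0.41) and Penk (0.74 and 0.38). Haao was most like Dnah7b (0.48 and 0.46), Tekt1 (0.46 and 0.47) and AC154683.1 (0.45 and 0.50), of which Dnah7b and Tekt1 are genes of motile cilia. For Aadat, the most alike were Spsb4 (0.28 and 0.33), Snx7 (0.28 and 0.35) and Gpx3 (0.33 and 0.28).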

How the data were processed

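RNA of cortex and hippocampus was extracted with a Qiagen kit, poly(A)-selected, made into NEBNext Ultra II Directional libraries and sequenced as single reads on an Illumina NextSeq instrument. The authors mapped reads with STAR to GRCm39 and counted reads per GENCODE gene during mapping, and the deposited values are whole-number read counts, not normalised, with 4 summary lines per library that were kept out of library sizes and tests. The STAR version, annotation release and strand setting were not given in the sources used here. In the 2 tables, 3 columns matched no library and were not used, and 1 library whose tissue labels conflict stayed out of every group.

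Tests used edgeR 4.0.16 under R 4.3.3 (filterByExpr with a minimum count of 10 and a minimum total of 15, TMM scaling, quasi-likelihood test) over all genes of a tissue, and a gene was called at an adjusted p under 0.05 (Benjamini-Hochberg). Genotype comparisons and the interaction used all groups of the tissue, the others the groups of 1 genotype. CPM are reads per 1000000 on genes without TMM scaling, so a ratio of CPM means can differ from the fitted fold. DESeq2 1.42.0 was an alternative, beside another scaling, no filter, only the groups compared, covariates, number series, kept or dropped libraries and left-out mice. Steps were tested on simulated data. Limits given for a count of 0 cover counting error only, since reads without molecular identifiers include PCR copies. Likeness and correlations used log2 CPM with a prior count of 2, with group means but not number series subtracted.

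The members and the gene lists (other kynurenine and monoamine genes, cell type markers, and the striatal list) were chosen with earlier results of these data known. The rule for named genes took all 8 members, here with single values or as ranges, from the lists at most the 3 called genes of largest difference in a comparison, and the 3 genes most like each member that passed the filter in both tissues, which Kmo and Kynu did not. Of the genes most like Maoa and most like Ido1, 1 each is not reported here. Genes named for likeness to Ido1 in cortex alone were chosen after their values were seen, as were the libraries described singly. Tissues were paired by the mouse number. After group means were subtracted, the same-mouse correlation between tissues was -0.21 to 0.91 (median 0.59) over 62 mice. Over the 18 control mice with both libraries it was 0.25 to 0.89 (median 0.69). Number series was not subtracted, and its part in this correlation was not tested. Each group member is a separate mouse by its number.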

Additional observations from a re-analysis of the deposited data

Results flagged for a closer look

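Among 48 sets of 4 to 10 libraries of 1 member, tissue and group, 3 held a library far from the others by Dixon's test at the 95% level, where chance gives about 1 in 20, and all 3 were of Ido1. In SS cortex, mouse 5353 stood at 1.308 CPM (54 reads), and the next highest of the 8 mice at 0.675 CPM. In SS + RSD cortex, mouse 9621 stood at 3.41 CPM (143 reads), and the next highest of the 6 mice at 0.957 CPM. In SS + RSD hippocampus, mouse 9615 stood at 0.3495 CPM (16 reads), and the next highest of the 6 mice at 0.208 CPM. The cortex libraries of mice 5353 and 9621 were also the highest of their groups in the summed level of 9 striatal genes, at 648 and 2257 CPM. The hippocampus library of mouse 9615 had the highest Maob of that tissue, 44.4 CPM. For 32 pairs of comparisons across genotypes, each within a tissue, 0 had every mouse of one group moving against every mouse of the other.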

How the results depend on the processing

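Of 309 single differences under an alternative, 21 were reversed, 11 lost their call and 7 gained one. In most comparisons 0 members were called under every setting, which says nothing about stability. The shares of all genes called under the alternatives are not given here. SS + RSD against SS in cortex gave 1 call (Maoa, 0.31) when only the compared groups were fitted. SS + RSD + minocycline against SS + RSD in cortex gave 0 calls with number series as a term or with reads outside genes as a term, and 0 to 1 with each SS + RSD mouse left out. In hippocampus the same comparison gave 1 call, Maob, with RLE size factors, DESeq2 or only the groups compared. SS + minocycline against SS in cortex gave 1 call (Aadat) in series B. The tissue comparison gave 2 calls with mouse as a replicate block, and the block applied to no other comparison. Series B against A gave 0 calls in each tissue among AA mice alone, where fewer mice were compared. Without the libraries labelled 5844, 5853, 7078 and 9631, Ido1 passed between series in cortex at -1.28 (adjusted p = 0.00722, edgeR). Reversed log2 differences with series as a term were, for SS + RSD against SS, Maob -0.021 in cortex and -0.019 in hippocampus (-0.031 in cortex within series A), for SS + RSD + minocycline against SS + RSD, Maob 0.15 and 0.22, Maoa 0.26 and 0.18, Aldh2 0.30 in hippocampus and Ido1 1.403 in cortex, and for SS + minocycline against SS, Maob 0.34 and 0.42 (0.36 and 0.46 within series B). With reads outside genes as a term, Maoa was at 0.10 and Ido1 at 0.26 in cortex for SS + RSD + minocycline against SS + RSD. With each mouse left out in turn, Maob for SS + minocycline against SS ran from -0.14 to 0.061 in cortex and from -0.17 to 0.12 in hippocampus, and Ido1 in cortex from -0.029 to 1.27 for SS + RSD against SS and from -0.44 to 0.87 for SS + RSD + minocycline against SS + RSD. The cause of these changes was not tested. Depth limits Kmo, Kynu, Aadat and Haao, at 0 to 28 reads per library.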

Other observations

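AA + minocycline was represented by 1 mouse and entered no comparison. It stood at 37.2 CPM for Maoa, 20.8 for Maob and 74.9 for Aldh2 in cortex, and at 32.5, 17.7 and 75.5 CPM in hippocampus, where its Maob was the lowest of all libraries. Ido1 stood at 0.184 CPM in its cortex (9 reads) and 0.0781 CPM in its hippocampus (3 reads). Kmo was at 0.102 and 0.0260 CPM, Kynu at 0.0410 and 0 CPM, Aadat at 0.0820 and 0.130 CPM, and Haao at 0.246 and 0.286 CPM, cortex first.

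Aldh2 in hippocampus correlated with the mean log2 level of choroid plexus markers at r = 0.66 over 63 libraries, and at -0.13 over 65 cortex libraries, after group means were subtracted. Th in cortex ranged widely in SS + RSD + minocycline mice, from 2.11 to 84.2 CPM with a median of 3.22.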
